A study of Drosophila melanogaster with 4 samples.

Results

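Broad regions of H3K9me2, histone H3 dimethylated at lysine 9, were examined on the distal parts of the large chromosome arms of Drosophila melanogaster heads. A broad region was an enriched region of the authors' combined list that was at least 10 kb long and had its midpoint outside the centromere-proximal 2 Mb of arm 2L, 2R, 3L, 3R or X. This gave 249 broad regions, which were 2.97% of the 8384 distal enriched regions and part of 10762 enriched regions in all. The 249 covered 3.65 Mb, or 3.34% of the 109 Mb of distal sequence, and held 14.1% of the distal enriched length. They were chosen by their length and place in the combined list, so their number, length and score in that list are a description and carry no test.

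The data came from 2 H3K9me2 ChIP libraries and 2 input libraries of head nuclei. All were made from wild-type flies of the strain Oregon-R-modENCODE, labelled as mixed adults, which were raised in population cages and whose heads were collected with sieves. The ChIP libraries used the antibody H3K9me2-Ab2 (new lot), per the series' design text. Each ChIP library had its own deposited region list, and the combined list belonged to both. Nothing in the labels ties the replicates to separate cages, and their spread may therefore be technical. Heads hold many cell types, and a region in these lists may be marked in all of them or in a part.

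H3K9me2 is placed by histone methyltransferases, which in Drosophila include Eggless and G9a, and is bound by heterochromatin protein HP1a. It is best known from pericentric heterochromatin, the condensed and repeat-rich chromatin beside the centromeres. On the arms, which are mostly euchromatin, it is found in shorter stretches. The genes inside the broad regions are not named here, because the gene table at hand is on Release 6 and the lists are on Release 5.

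The lists differed in size. Replicate 1 listed 4106 distal enriched regions over 12.6 Mb, replicate 2 listed 7669 over 24.1 Mb, and the combined list had 8384 over 25.9 Mb. Read depth is unknown, so no interval from counting error can be given. Scores are the authors' own values, in a unit that is not stated.

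Most broad regions were only a little above the length threshold. Their median length was 12679 bp, with quartiles at 11025 and 15455 bp, and the other distal regions had a median of 2125 bp. There were 105 broad regions of 10 to under 12 kb, 71 of 12 to under 15 kb and 44 of 15 to under 20 kb. The remaining 29 were at least 20 kb long, and 9 of these reached 30 kb or more. These 9 regions held 9.46% of the total broad length. The threshold cut through a continuous range of lengths. Just inside it lay regions of 10005, 10047 and 10057 bp, with scores of 1.27, 1.24 and 1.20. Just outside lay regions of 9985, 9983 and 9933 bp, with scores of 1.16, 1.55 and 1.07.

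Scores of the broad regions ranged from 0.66 to 2.24, with a median of 1.22. The median of the shorter distal regions was 0.55, and that of the distal regions of 5 to under 10 kb was 1.00. All 249 broad regions scored above the median of all distal regions, a level that 50% of those regions exceed by definition. Since length chose the regions and score went with length, nothing is read from this. Spearman's rho between length and score was 0.30 across the 249 broad regions, which share the same pair of libraries. The highest single score on the distal arms, 4.11, belonged to a region under 10 kb.

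The longest broad region lay on 3R, at 25077664–25137960, and was 60.3 kb long with a score of 1.34. Replicate 1 covered 93.3% of it in 7 pieces, of which the longest was 20748 bp, and replicate 2 covered 97.6% of it in 1 piece of 58846 bp. The other long regions of 3R were much shorter. Those at 21093376–21114736 (21.4 kb) and 27521068–27541926 (20.9 kb) were covered over 97.4% and 97.3% in replicate 1, and over 98.2% and 99.2% in replicate 2. The region at 13602760–13622222 (19.5 kb) was covered over 61.2% in replicate 1 and 93.9% in replicate 2, with an uncovered stretch of 4410 bp in replicate 1.

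On 2L the longest broad region was at 4478882–4514278 (35.4 kb), and it was a single piece in both replicates, covered over 98.6% in replicate 1 and 99.6% in replicate 2. The region at 16765130–16798854 (33.7 kb) was covered over 99.8% and 99.1% in the same order. The region at 20168754–20199106 (30.4 kb) had the second highest score of all broad regions, 2.18. It was among the few with more cover in replicate 1, 98.1%, than in replicate 2, 86.1%. The region at 5157494–5187058 (29.6 kb), was covered over 88.3% in replicate 1 and 92.0% in replicate 2. All 4 were thus covered over at least 86.1% in each library.

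On 2R the longest was at 8237278–8279948 (42.7 kb), covered over 89.6% in replicate 1 and 99.7% in replicate 2. The missing part in replicate 1 was mostly 1 stretch of 3599 bp at the left edge. The region at 2309370–2341556 (32.2 kb) scored 2.04 and was covered over 77.1% in replicate 1 and 94.8% in replicate 2, in 4 pieces in each. Of the other 2, the region at 11843938–11875904 (32.0 kb) was covered over 94.7% and 95.1%, and that at 19882784–19907544 (24.8 kb) over 82.7% and 98.3%.

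The long regions of X were more broken in replicate 1. The longest, at 15548322–15591384 (43.1 kb), was covered over 81.4% in 5 pieces in replicate 1 and 99.9% in 3 pieces in replicate 2. The region at 20068326–20103766 (35.4 kb) was covered over 85.0% in 7 pieces in replicate 1 and 99.4% in 2 pieces in replicate 2. Those at 7759574–7781776 (22.2 kb) and 2083218–2103166 (19.9 kb) were covered over 85.9% and 73.3% in replicate 1, and in full and over 95.6% in replicate 2.

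Arm 3L had no region above 25.2 kb. The longest, at 11958552–11983772, was covered over 96.7% in replicate 1 and 99.5% in replicate 2. The next, at 2123272–2147190 (23.9 kb), was covered over 78.8% and 99.8%, and that at 1227130–1248474 (21.3 kb), over 93.2% and in full. The region at 2040052–2061756 (21.7 kb), had the largest excess of cover in replicate 1 among all broad regions. It was covered over 97.1% in replicate 1 and 72.03% in replicate 2, where 5656 bp in 1 stretch were missing.

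Broad regions were most numerous on X in the combined list and least numerous on 3R. X had 64, 2R 53, 3L 48, 2L 44 and 3R 40, which is 3.13, 2.77, 2.13, 2.09 and 1.54 per Mb of distal sequence. X held 25.7% of the broad regions on 18.7% of the distal sequence, and 3R held 16.1% on 23.8%. Broad length was 4.29% of the distal part of X, 4.21% of 2R, 3.34% of 2L, 3.03% of 3L and 2.23% of 3R. X also had the most enriched regions of any length, 97.0 per Mb against 66.5 on 3R. As a share of an arm's own distal regions, the broad ones made up 3.47% on 2R, 3.23% on X, 3.07% on 2L, 2.80% on 3L and 2.32% on 3R.

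The lead of X did not hold in the replicate lists. By the same rule, replicate 1 listed 28 broad regions on 2R, 21 on 2L, 17 on 3L, 16 on X and 10 on 3R. Replicate 2 listed 43 on 2R, 43 on X, 42 on 3L, 35 on 2L and 34 on 3R. Per Mb, 2R was highest in both replicates and 3R lowest, and 3R was lowest in the combined list too. The mean over the replicates was 1.85 ± 0.55 per Mb on 2R, 1.44 ± 0.93 on X, 1.33 ± 0.47 on 2L, 1.31 ± 0.78 on 3L and 0.85 ± 0.66 on 3R (SD, n = 2). These SDs include the longer list of replicate 2, which all arms share. Taken within each replicate, 2R was ahead of 3R by 1.08 and 0.93 per Mb, with a mean of 1.00 ± 0.10, and ahead of X by 0.68 and 0.14, with a mean of 0.41 ± 0.38 (SD, n = 2). The order of X and 2L, and of 2L and 3L, was not the same in both replicates. The count of 2R included many regions near the border of the proximal window. At 0 to 1, 1 to 2 and 2 to 3 Mb outward, 2R had 6, 3 and 1 in replicate 1 and 4, 5 and 6 in replicate 2. With a proximal window of 5 Mb, 2R held 16.8% of the broad regions of the combined list, against 21.3% with 2 Mb. Among the 29 regions of at least 20 kb, 9 were on 2L, 7 each on 2R and 3L, and 3 each on 3R and X.

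**Figure D1:**
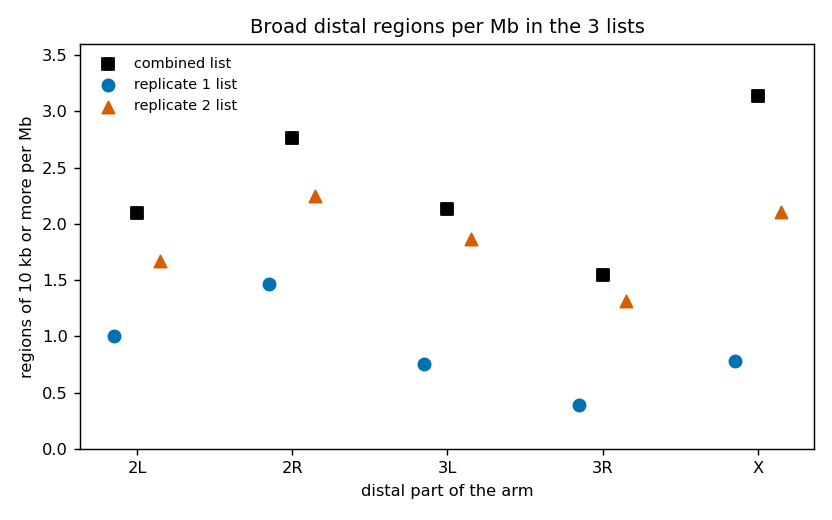
Enriched regions of 10 kb or more per Mb of distal sequence (vertical axis) on each large arm (horizontal axis), as counted by the same rule in the combined list, the replicate 1 list and the replicate 2 list. X is highest in the combined list with 3.13 per Mb, 2R is highest in both replicate lists, and 3R is lowest in all 3 lists.

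Broad regions were spread unevenly along the arms, in a way that differed from arm to arm. The distal part of each arm was divided into 3 sections of equal length, called inner, middle and outer, counted outward from the border of the proximal 2 Mb. On 2R, 30 of 53 broad regions, or 56.6%, lay in the inner section, against 35.8% of the shorter distal regions of that arm. On 3R, 22 of 40, or 55%, lay in the outer section, against 31.2% of the shorter ones. On 2L, 21 of 44, or 47.7%, lay in the outer section, against 36.0%. X had 27 in the inner section, 13 in the middle and 24 in the outer one, and 3L had 17, 13 and 18. Over the 5 arms the middle section was the poorest, with 60 of 249, or 24.1%, against 32.3% of the shorter regions.

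The same split was present in each replicate's own list of broad regions. On 2R the inner section held 15 of 28 in replicate 1 and 22 of 43 in replicate 2. On 3R the outer section held 6 of 10 and 20 of 34, and on 2L it held 10 of 21 and 19 of 35. The replicate lists and the combined list share their libraries, so these counts are not independent of each other. On X the replicates were unlike each other, with 11, 0 and 5 broad regions in the inner, middle and outer section in replicate 1 and 17, 9 and 17 in replicate 2.

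**Figure D2:**
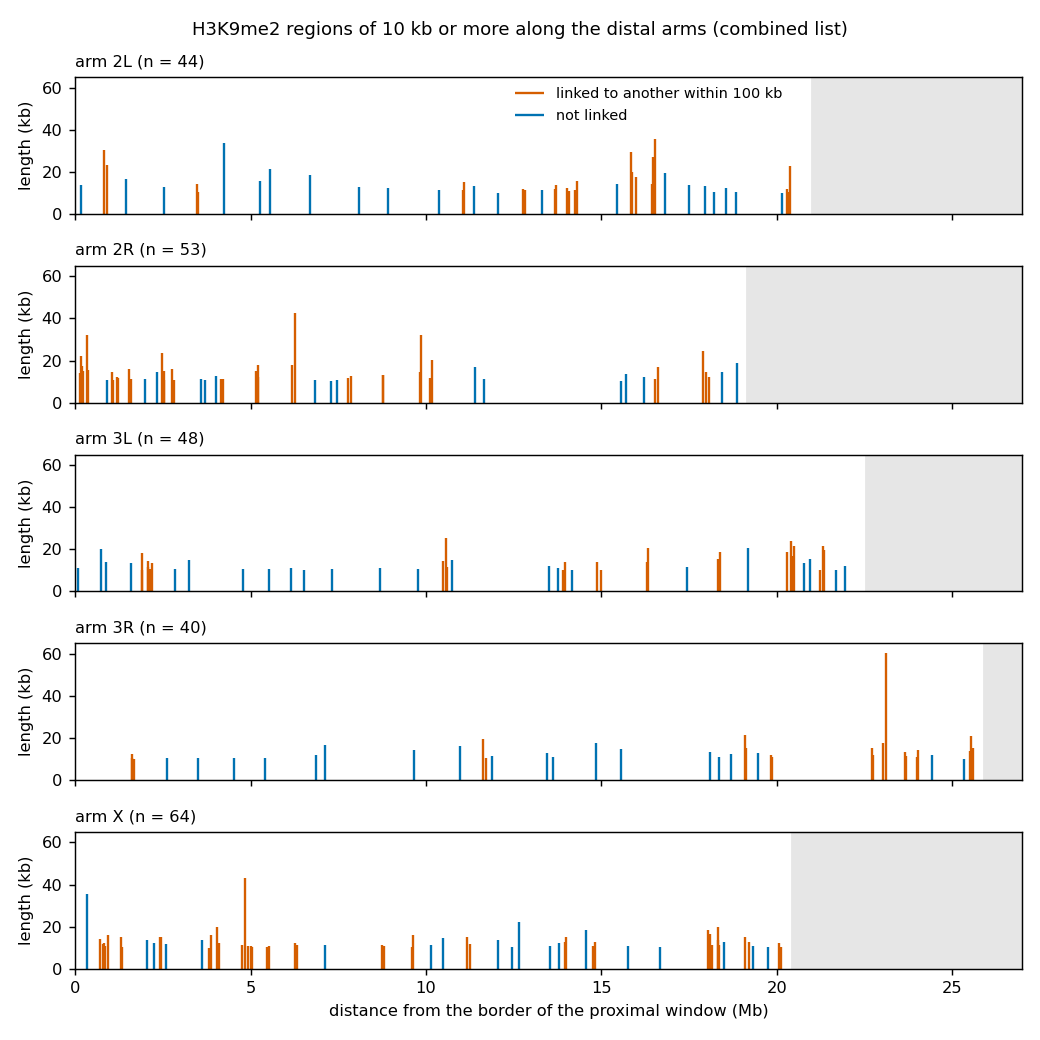
Position and length of the 249 broad regions on the 5 large arms. The horizontal axis is the distance in Mb of a region's midpoint from the border of the proximal 2-Mb window, the vertical axis is its length in kb, and grey marks distances past the end of the arm. Regions within 100 kb of another broad region are orange and the others blue. On 2R they are dense within the first few Mb, and on 3R in the outer part, where the 60.3-kb region lies.

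A small part of the broad regions lay directly beside the proximal windows. The first 1 Mb outside the windows held 19 broad regions, or 7.63%, and 4.82% of the shorter regions. Of these 19, 7 were on 2R, 6 on X, 3 each on 2L and 3L, and 0 on 3R. The median score of these 7 on 2R was 1.83, and that of the other broad regions of the arm 1.23. On 2L the medians were 1.62 in the first 1 Mb and 1.24 farther out, but on 3L they were 0.99 and 1.20, and on X 1.20 and 1.26. Of the 5 highest-scoring broad regions, 3 were among the 7 on 2R. These 3 lay at 2160204–2182534, 2183292–2200598 and 2309370–2341556, with scores of 2.05, 2.24 and 2.04. The second highest score, 2.18, was also in the first 1 Mb, on 2L at 20168754–20199106. The fixed border of 2 Mb is a rule of position, so it does not show that each region beyond it lies in euchromatin. The fifth of the highest scores, 1.97, was far from the border, on X at 6444630–6457326, and this region was covered over 97.2% in replicate 1 and 98.9% in replicate 2. At the other end, 17 broad regions, or 6.83%, lay within 1 Mb of the end of the arm sequence, against 5.53% of the shorter regions, and the nearest midpoint was 0.278 Mb from it.

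Most broad regions had another one within 100 kb. From edge to edge, the median distance to the nearest other broad region was 53.6 kb, with quartiles at 14.6 and 238 kb. Of the 249, 46 had another broad region within 10 kb, 113 within 50 kb and 151 within 100 kb, whereas 28 had none within 500 kb. The closest pair, on 3L, was 79 bp apart. The share within 100 kb was 70.3% on X, 69.8% on 2R, 52.5% on 3R, 52.3% on 2L and 52.1% on 3L. With even spacing, broad regions would lie 305 kb apart on X, 346 kb on 2R, 455 kb on 3L, 462 kb on 2L and 633 kb on 3R. Because the share within 100 kb depends on this density, it does not rank the arms by clustering. Independent random places would also have nearest distances below those of even spacing. No random placement was run, so the gap to even spacing is no measure of clustering. The replicates' own broad regions had a median distance of 129 kb in replicate 1 and 51.5 kb in replicate 2, with fewer regions in the first.

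Linking broad regions at up to 100 kb joined these 151 into 60 groups, and left 98 regions single. There were 42 pairs and 18 groups of at least 3. The largest group had 6 broad regions on 2R at 2136128–2382982, close to the proximal window. They made up 47.2% of its 247 kb, and replicate 1 covered 60.1% and replicate 2 55.8% of the whole span. Groups of 5 lay on X at 15366232–15678160, on X at 19474334–19711936, on 3L at 2040052–2256156 and on X at 2277886–2392580. The last was the densest of the 5 largest groups, with 60.3% of its 115 kb in broad regions, and was covered over 55.4% in replicate 1 and 75.8% in replicate 2. The second of them was covered over 31.0% in replicate 1 and 55.1% in replicate 2. The other 2 groups of 5 were covered over 34.5% and 48.8% in replicate 1, and over 49.9% and 57.0% in replicate 2.

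In windows of 1 Mb, counted outward from the proximal border, the number of broad regions ranged from 0 to 9. The variance over the mean was 1.49 over 107 windows, where 1 is the value for independent random places at a single density. The arms differed in density, from 1.54 per Mb on 3R to 3.13 on X, which raises the ratio by itself. The ratio was 1.64 and 1.67 for the own broad regions of replicates 1 and 2. The shorter regions were more uneven by the same measure, at 4.12, but they are far more numerous, which raises it. The windows held 241 of the broad regions. The 12 windows with at least 5 broad regions, chosen by that count, held 72 of these 241, or 29.9%, and 13.0% of the shorter regions. In 17 windows there was no broad region, and 7 of these were on 3R. These 17 still held between 44 and 81 shorter regions each, with a median of 67, against 76 in the windows that had a broad region. Across the 107 windows the numbers of broad and shorter regions had a Pearson's r of 0.42, as a description of 1 list.

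Each of the 249 broad regions was touched by enriched regions of replicate 1 and of replicate 2, against 42.3% and 86.4% of all distal regions of the combined list. The combined list was made for these libraries, so the cover of its regions in them is not independent of how they were chosen. Replicate 1 covered 82.1% and replicate 2 96.2% of the broad length, and the mean was 89.1% ± 10.0 (SD, n = 2). Of the length of shorter distal regions, replicate 1 covered 42.4% and replicate 2 87.8%, with 65.1% ± 32.1 as the mean. Broad regions were thus ahead by 39.7 percentage points in replicate 1 and by 8.46 in replicate 2, on average by 24.1 ± 22.1. A two-sided sign-flip test of this difference, exact over the replicates, gave p = 0.5, the lowest value that n = 2 allows. Set against distal regions of 5 to under 10 kb, they were ahead by 12.5 points in replicate 1 and by 1.63 in replicate 2, and the mean of 7.05 ± 7.67 was within the spread (exact permutation p = 0.5).

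At least 50% of the length was covered in both replicates in 236 of the 249 broad regions, against 35.4% of all distal regions. At 90% the number was 69, against 5.61%. Taking replicate 2 by itself, 220 broad regions were covered over 90% or more, against 72.5% of all distal regions. Only 37 were covered in full, and their upper quartile of cover was 99.7%, against 100% over all distal regions. Full cover in replicate 2 was thus less common in broad regions than in distal regions as a whole. Taking replicate 1 by itself, 77 reached 90%, against 7.67%, and 0 were covered in full. Replicate 2 covered more than replicate 1 in 223 of the 249, against 82.4% of all distal regions, so the replicate with the longer list also had more cover in most broad regions.

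**Figure D3:**
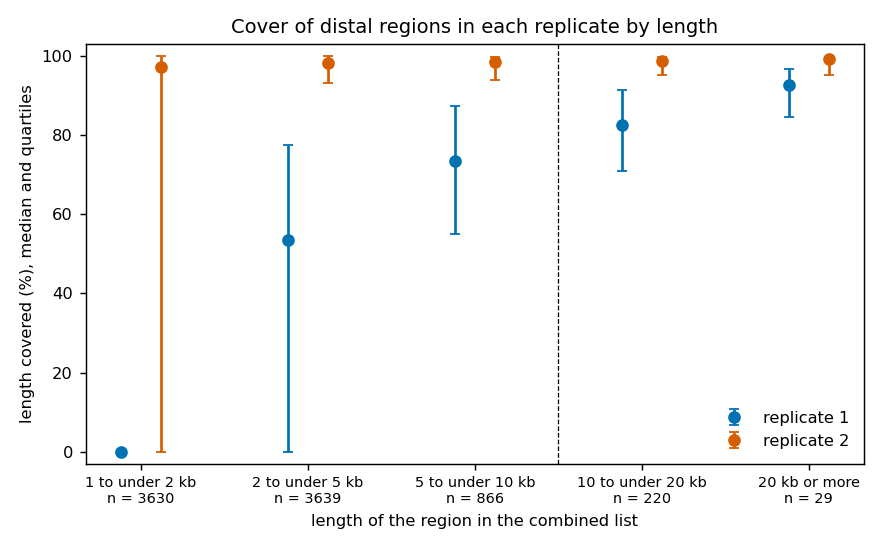
Share of a distal region's length that was covered in replicate 1 and in replicate 2 (vertical axis, percent), by the region's length in the combined list (horizontal axis). Points are medians and bars run between the quartiles, and the dashed line marks the threshold of 10 kb. In replicate 1 the median is 0 under 2 kb and 92.6% at 20 kb or more, and in replicate 2 it is above 97% in each class, with a lower quartile of 0 under 2 kb.

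Cover went with length in both replicates, over a wider range in replicate 1. The median cover in replicate 1 was 0 for distal regions under 2 kb, 53.5% at 2 to under 5 kb, 73.5% at 5 to under 10 kb, 82.6% at 10 to under 20 kb and 92.6% at 20 kb or more. In replicate 2 it was 97.3%, 98.2%, 98.5%, 98.8% and 99.1% in the same classes, so the median was near its upper limit throughout. The share of the summed length covered in replicate 2 was 71.8% under 2 kb, and 92.2%, 94.6%, 96.2% and 96.3% in the longer classes. Under 2 kb, 1080 regions, or 29.8%, were untouched by replicate 2. Of the regions of 5 to under 10 kb, 32 were not touched by replicate 1 and 0 were untouched by replicate 2. Among the broad regions, cover in replicate 1 went with score (Spearman's rho of 0.59) more than with length (0.31), across regions and with no test. In replicate 2 the same values were lower, 0.18 with score and 0.07 with length.

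In replicate 1, 13 broad regions had under 50% cover. Their lengths had a median of 11425 bp and reached 14109 bp. Their median score was 0.90 and their highest 1.27, so some were above the median length or score of all broad regions. Each was covered over at least 70.9% in replicate 2. There were 4 of them on X, 4 on 2L, 2 each on 2R and 3L, and 1 on 3R. The lowest cover in replicate 1, 31.2%, was on X at 19599172–19611444, where replicate 2 covered 96.1%. A region on 2R at 3974334–3985758 was covered over 33.5% in replicate 1 and 96.5% in replicate 2. The other large differences, of 54.7, 54.1 and 52.4 percentage points, were on 2R at 9276766–9287258, on 2L at 2159450–2170016 and on 2L at 4552080–4566188, each with more cover in replicate 2. The lowest mean cover over the replicates, 57.9%, was on X at 16797118–16810632, with 44.96% in replicate 1 and 70.9% in replicate 2. That region also had the lowest score of all broad regions, 0.66. It was followed by X 19076706–19086840 with a mean of 60.1%, and 3L 8775376–8786350 had 64.7%.

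**Figure D4:**
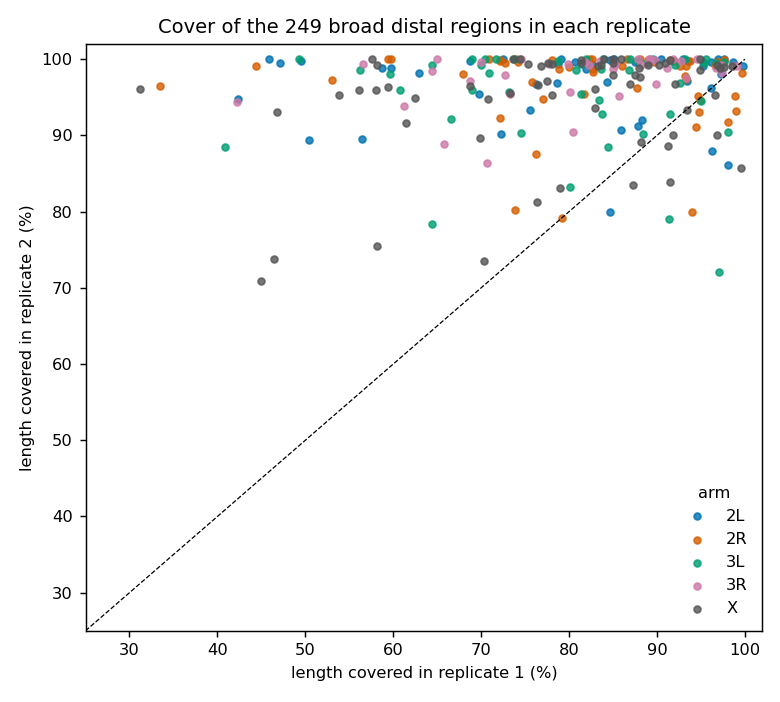
Share of each broad region's length covered in replicate 1 (horizontal axis, percent) and in replicate 2 (vertical axis, percent), coloured by arm, with a dashed line of equal cover. The points lie between 31.2% and 99.8% in replicate 1 and between 70.9% and 100% in replicate 2, and 223 of the 249 lie above the line.

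Mean cover of broad regions ran from 87.3% ± 10.9 on X to 90.6% ± 10.4 on 3R (SD, n = 2), where the SDs include the higher cover of replicate 2 on every arm. Taken within each replicate, 3R was ahead of X by 3.69 and 2.98 percentage points, with a mean of 3.34 ± 0.50 (SD, n = 2). X was the lowest of the 5 arms in the full lists of both replicates. The highest was 2R in replicate 1 and 3R in replicate 2. The replicates differed by 13.1 percentage points on 2R and by up to 15.4 on X. The low place of X did not hold when replicate 2 was reduced to its best-scoring distal regions of the same total length as replicate 1. In that reduced list 2L was lowest with 83.1%, and X had 89.0%. The order of the arms by the share of broad regions in a single piece was not the same in the replicates. In replicate 1, 22.5% of the broad regions of 3R and 25% of those of X were a single piece, against 40.9% on 2L, 41.5% on 2R and 43.8% on 3L. In replicate 2 the single pieces made up 80% on 3R, 66.7% on 3L, 62.3% on 2R, 59.4% on X and 59.1% on 2L.

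Over all arms, 86 broad regions (34.5%) were a single piece in replicate 1 and 161 (64.7%) in replicate 2, against 36.8% and 82.5% of all distal regions. Those background shares include untouched regions, which have no piece, whereas all 249 broad regions were touched. Replicate 1 touched 3548 distal regions, of which 3086 were a single piece, and replicate 2 touched 7242, of which 6919 were. Broad regions were more often broken than touched distal regions in both replicates. They were chosen by length, and a longer region has more room for gaps, so nothing is read from this. The most broken of the broad regions had 7 pieces in replicate 1 and 5 in replicate 2. The longest uncovered stretch of a broad region was typically 1517 bp in replicate 1 (median) and 128 bp in replicate 2. These medians were 1308.5 and 93 bp for distal regions of 5 to under 10 kb. For all shorter distal regions they were 1425 and 53 bp, where an untouched region counts with its full length. The stretch was above 1 kb in 157 broad regions in replicate 1 and in 40 in replicate 2, and other distal regions were not counted in this way.

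Many broad regions were broad only in the combined list or in replicate 2. Replicate 1 listed 92 distal regions of at least 10 kb and replicate 2 listed 197. Of the 92, 89 lay at least 50% inside the broad regions of the combined list, and of the 197, 189 did. In the other direction, 84 of the 249 were covered over at least 50% of their length by regions of this size in replicate 1, and 184 in replicate 2. Both replicates did so for 74 of the 249, replicate 1 alone for 10, replicate 2 alone for 110, and neither for 55. On X neither replicate did so for 21 of 64 broad regions, against 6 of 40 on 3R, 8 of 44 on 2L, 10 of 48 on 3L and 10 of 53 on 2R.

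The edges of broad regions were close to those of replicate 2. Of 498 edges, 410 lay within 250 bp of the outermost edge of the overlapping regions of replicate 2, and 166 within 250 bp in replicate 1. The median displacement was 61 bp in replicate 2 and 430.5 bp in replicate 1, where 472 of the 498 edges fell inside the broad region. Of the length that replicate 1 did not cover, 65.6% was at the edges and 34.4% was between pieces. In replicate 2 these shares were 56.6% and 43.4% of a much smaller length, 137 kb against 654 kb.

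The sequence around broad regions was covered more than the distal arms as a whole. The 10 kb on each side were covered over 25.2% in replicate 1 and 39.8% in replicate 2, on average over 32.5% ± 10.3 (SD, n = 2). Around distal regions of 5 to under 10 kb the values were 19.3% and 34.3%, and around all shorter regions 13.0% and 26.5%. The whole distal arms were covered over 11.5% in replicate 1 and 22.1% in replicate 2. In the 50 kb on each side of broad regions the cover was 21.4% and 35.0%. Taken within each replicate, the 10 kb beside broad regions were ahead of those beside regions of 5 to under 10 kb by 5.90 points in replicate 1 and 5.53 in replicate 2, with a mean of 5.72 ± 0.26 (SD, n = 2). With n = 2 no exact test of this gap can go below p = 0.5. The next enriched region lay within 1 kb of 133 of the 249 broad regions, against 36.7% of all distal regions, at a median gap of 895 bp against 1735 bp for shorter ones.

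**Figure D5:**
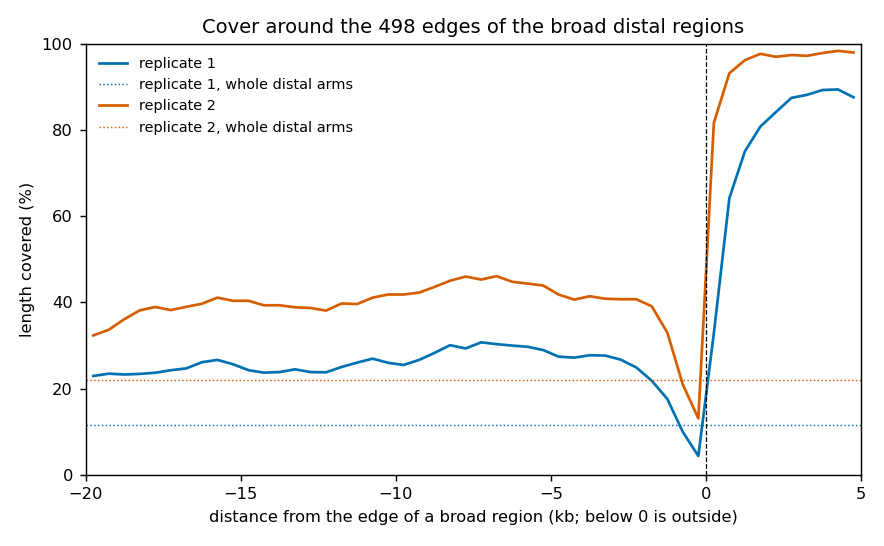
Share of sequence covered (vertical axis, percent) in replicate 1 and replicate 2 in bins of 500 bp by distance from the edges of the broad regions (horizontal axis, kb, below 0 is outside), over 498 edges. Dotted lines are the cover of the whole distal arms. From 2 to 20 kb outside, the bins run from 22.9% to 30.7% in replicate 1 and from 32.3% to 46.1% in replicate 2, and the dip at the edge follows from the gap that ends a region.

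Regions of at least 10 kb in the proximal windows were longer and had higher scores than the distal ones. Medians were 12679 bp and a score of 1.22 for the 249 distal regions, and 18407 bp and a score of 1.58 for the 113 in the proximal windows. The longest was 60297 bp on the distal arms and 193491 bp in the proximal windows. The replicates were ordered differently in these places. Distal broad regions were covered over 82.1% in replicate 1 and 96.2% in replicate 2, whereas the proximal ones were covered over 96.2% in replicate 1 and 89.6% in replicate 2. On chromosome 4, with only 8 regions of this size, the cover was 93.8% and 87.2%, and on the 200 of the Het scaffolds, sequences of mapped heterochromatin, it was 96.9% and 86.2%. Replicate 2 covered more than replicate 1 on the distal arms and less in these 3 places. This difference was not tested, since each place has 1 value per replicate.

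The 7 depleted regions of the combined list overlapped 0 broad regions, and the nearest was 1.17 kb away from one. Both kinds of region come from the same list, so nothing about the broad ones is read from this.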

How the data were processed

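The labels' protocols describe sonicated, formaldehyde-fixed chromatin from sieved heads. Per the submitters' processing notes, Bowtie 0.12.7 was the aligner. The lists are on FlyBase Release 5, per the file headers. Not given in the sources used here are the caller, its threshold and how the replicates were combined. The deposited score, in an unstated unit, was used only to rank, filter and describe regions. Scores were above 0 in enriched regions, and depleted regions were left out of all counts but the last.

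The broad regions and the quantities given were chosen with earlier results of these data known. Named are the 4 longest broad regions of each arm, the 5 with the lowest mean cover, the 5 with the largest difference in cover, the 5 with the highest score, the 5 largest groups and the regions nearest to the length threshold. Cover is the percent of a region's length inside enriched regions of a replicate list, and overlap needed at least 1 bp. Windows not fully inside the distal arm were left out. The input libraries have no values of their own here. Calculations used Python 3.11.15, numpy 2.4.6, pandas 2.3.3 and scipy 1.17.1, and the interval code was tested on simulated data. Alternatives were other lengths, windows, joining of gaps, score filters and links between regions.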

Additional observations from a re-analysis of the deposited data

How the results depend on the processing

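The depth of the libraries is unknown, and with 2 replicates no test could pass a threshold. The 249 broad regions became 1115 with a minimum length of 5 kb, 29 with 20 kb and 468 when gaps of up to 1 kb in the combined list were joined first. The share of broad regions on X, 25.7%, was 10.3% at 20 kb. The share on 2R, 21.3%, was 16.8% with a proximal window of 5 Mb. The share within 100 kb of another, 60.6%, was 89.8% at 5 kb, 27.6% at 20 kb and 70.5% with joined gaps, where the number of regions changes the spacing by itself. It was 45.4% with links of up to 50 kb and 73.1% with 200 kb. The share in the inner 50% of the distal arm, 48.6%, was 41.4% at 20 kb, and 53.6% and 40.8% with proximal windows of 1 Mb and 5 Mb, which move the border itself. Leaving out replicate 1 or replicate 2 (by the list of the other alone) gave 92 to 197 broad regions, 17.4% to 21.8% on X, 48.9% to 60.4% within 100 kb of another and 45.2% to 52.2% in the inner 50%. Mean cover was 82.1% to 96.2% and its difference from shorter regions 8.46 to 39.7 percentage points. This difference kept its direction under each alternative run, from 7.05 points against regions of 5 to under 10 kb to 44.2 points with replicate 2 reduced to its best-scoring distal regions of the same total length as replicate 1, an alternative chosen after seeing the data. With that reduction replicate 2 covered 89.6% of the broad length and replicate 1 82.1%. Of the length of shorter regions, replicate 2 then covered 40.9%, against 87.8% with its full list. Score went with length, so a filter by score takes more from shorter regions, and nothing is read from the wider difference. The better-scoring 50% of the combined list held all 249, so this filter could change nothing and is no check of the results. For the 31 named broad regions, mean cover moved by more than 1 SD of the replicates in 4 with joined gaps, in 4 with the better-scoring 50% of each replicate list and in 6 at equal length. This SD is each region's own, so the counts do not show that the others were stable. 2R 9276766–9287258 went from 71.7% to 36.6% with the better-scoring 50% and was not counted. 2L 16765130–16798854 went from 99.5% to 100% with joined gaps and was counted. No paired analysis was possible because the input libraries, the group that shares replicate numbers with the ChIP libraries, have no values in the lists used here. Differences between sets of regions were taken within each ChIP replicate.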
